A study of Homo sapiens with 6 samples.

Results

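In ferroptosis cells die when iron catalyses the peroxidation of their membrane phospholipids. The lipid side of the process comprises the enzymes that make phospholipids oxidizable together with those that halt the oxidation. Polyunsaturated fatty acids are joined to coenzyme A by long-chain acyl-CoA synthetases and inserted into phospholipids by acyltransferases. Oxidoreductases then supply electrons for peroxidation, and reduced coenzyme Q and tetrahydrobiopterin trap the lipid radicals. In colon cancer cells this machinery is studied because a membrane poor in polyunsaturated phospholipids, or rich in radical-trapping antioxidants, resists ferroptosis inducers.

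The transcripts of 10 genes of this machinery were followed among the 62710 genes of the deposited tables. They were chosen by name for their role, with earlier results of these data known. They were the activating enzymes ACSL1, ACSL3, ACSL4 and ACSL5, the acyltransferases LPCAT3 and AGPAT3, the oxidoreductase POR, and the protective enzymes AIFM2, DHODH and GCH1. All 10 were present under their own symbol and all 10 passed the filter on low counts. RNA-seq had been carried out on HCT116, an established human colon cancer cell line. In the 3 sh-NC libraries the cells carried a scrambled control sequence, and in the 3 sh-IGF2BP3 libraries an shRNA against IGF2BP3, an RNA-binding protein that stabilizes bound mRNAs. Both were delivered by lentivirus into stable lines, only 1 shRNA sequence was described, and no ferroptosis inducer is named in the labels of these libraries. The comparison therefore addressed whether knockdown alone altered the basal mRNA levels of these enzymes.

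The libraries held 16146718 to 23576469 counts on genes. Of 9 intestinal epithelial markers, 6 were at 1 FPKM (counts scaled to library total and gene length) or more in every library (EPCAM, CDH1, KRT8, KRT18, KRT19 and CDX2), whereas VIL1 and LGALS4 had at most 3 counts and CEACAM5 had 0. Of 8 markers of blood, fibroblast and endothelial cells, COL1A1 alone reached 1 FPKM in every library, at 2.98 to 6.51 FPKM, while COL1A2 was at 0. The 8 markers summed to 3.26 to 6.26 FPKM in sh-NC and to 3.50 to 6.91 FPKM in sh-IGF2BP3 libraries. In bulk RNA, fewer cells of a type and less RNA per cell cannot be told apart. IGF2BP3 itself stood at 90.3, 84.1 and 70.3 CPM (counts scaled to a common library size) in sh-NC 1, 2 and 3, and at 60.2, 52.3 and 55.8 CPM in sh-IGF2BP3 1, 2 and 3. All knockdown libraries thus lay below all control libraries, with a log2 fold change of −0.54 (SE 0.18, edgeR adjusted p = 0.126), which was −0.22 once the trends of each library with GC content and length, described further on, had been removed. The groups then overlapped for IGF2BP3. The study itself reported the knockdown in HCT116 cells by qPCR and Western blotting, which are not among these data.

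The 4 synthetases are members of a single family, so the ability of reads to separate them was examined in their sequences. Each stretch of 60 coding bases that follows is taken from the GENCODE 29 transcripts on GRCh38 and is written 5′ to 3′ on the coding strand. The capitals mark the 30 bases that encode the ATP/AMP signature of adenylate-forming enzymes.
ACSL1: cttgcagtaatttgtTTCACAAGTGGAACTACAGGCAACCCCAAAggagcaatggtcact
ACSL5: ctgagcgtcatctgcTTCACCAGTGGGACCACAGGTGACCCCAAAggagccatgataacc
ACSL3: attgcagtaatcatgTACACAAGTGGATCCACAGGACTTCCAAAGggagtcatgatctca
ACSL4: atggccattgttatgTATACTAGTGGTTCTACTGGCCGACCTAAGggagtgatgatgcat
Even here, ACSL1 and ACSL5 shared 25 of the 30 bases and ACSL3 and ACSL4 shared 21, and the remaining pairs shared 17 to 21. Across the aligned coding sequences, 65.9% of bases were identical between ACSL3 and ACSL4 and 62.0% between ACSL1 and ACSL5, against 45.1% to 47.1% for the other pairs. In the transcript taken for each gene, no stretch of 50 bases of the 4 mRNAs occurred in another gene on the same strand. Sense reads of that length from these transcripts thus match no other annotated gene. Exon bases outside these transcripts were not examined in this way. Of the annotated exon bases of ACSL4, 78 are shared with KCNE5 on the same strand, which had 0 to 4 counts in a library. The share of 50-base stretches found in another gene was 1.98% for DHODH, 0.54% for LPCAT3 and 0.094% for AIFM2.

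The stretches lie in exon 8 of ACSL3 (chr2:222921315-222921374, plus strand) and exon 8 of ACSL4 (chrX:109678321-109678380, minus strand). In the other two genes they cross the junction of exons 9 and 10, in ACSL1 at chr4:184773129-184773696 on the minus strand and in ACSL5 at chr10:112410602-112411481 on the plus strand. Base composition sets these genes apart as well. The GC content of the mRNA was 37.4% for ACSL4 and 38.1% for ACSL3, against 45.1% for ACSL1 and 44.8% for ACSL5, with a median of 48.7% over the genes tested.

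The opening codons of AIFM2 and POR illustrate the other end of that range, and they follow in the same form.
AIFM2: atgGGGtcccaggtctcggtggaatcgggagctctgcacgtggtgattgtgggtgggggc
POR: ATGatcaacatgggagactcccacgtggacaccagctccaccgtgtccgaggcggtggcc
In AIFM2 the capitals mark the glycine codon after the start codon, the residue whose N-myristoylation places the enzyme on membranes. In POR they mark the start codon itself. The AIFM2 stretch lies in exon 2 (chr10:70124025-70124084, minus strand) and held 39 G or C bases in 60, and the POR stretch lies in exon 2 (chr7:75953993-75954052, plus strand) and held 38. The whole transcripts had a GC content of 56.1% and 61.3%.

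Levels were first compared between the genes per length, in the deposited FPKM, averaged over the 6 libraries. ACSL5, the synthetase typical of intestinal epithelium, had the highest mean level (20.4 ± 7.77 FPKM, SD), followed by POR (14.9 ± 3.62), ACSL3 (14.5 ± 2.35) and ACSL4 (11.6 ± 2.32). AIFM2 (9.47 ± 2.00), AGPAT3 (9.46 ± 0.93), LPCAT3 (7.97 ± 0.60) and GCH1 (7.55 ± 0.49) formed the middle, and ACSL1 (5.94 ± 0.72) and DHODH (3.34 ± 0.57) stood lowest. DHODH was nevertheless above 48.5% of all tested genes, and ACSL5 above 88.1%. Within each library, ACSL3 exceeded ACSL4, AGPAT3 exceeded LPCAT3, GCH1 exceeded ACSL1 and ACSL1 exceeded DHODH in 6 of 6. The other neighbours in this order changed places, since ACSL5 exceeded POR in 4 libraries, POR exceeded ACSL3 in 2, ACSL4 exceeded AIFM2 in 4, AIFM2 exceeded AGPAT3 in 3 and LPCAT3 exceeded GCH1 in 3.

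The order at the top depended on the gene length used. The length behind the deposited FPKM was 14436 bases for ACSL3 against 7240 annotated exon bases in GENCODE 29, and 9971 against 6415 for ACSL4, while for the other members it was 0.98 to 1.09 times the annotated length. Per annotated exon base, a calculation added after the data were seen, ACSL3 had the highest mean (28.9 ± 4.68, SD) and exceeded ACSL5 (19.9 ± 7.59) in 6 of 6 libraries, followed by ACSL4 (18.02 ± 3.60) and POR (15.2 ± 3.69). AGPAT3 then stood just above AIFM2, and the order of the 4 lowest genes was as before.

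Knockdown was then compared with control for all genes together, and a gene was called when its fold change exceeded 1.5 with an adjusted p under 0.05. By edgeR's quasi-likelihood test 0 of 16753 genes were called (0%), the lowest adjusted p being 0.0563, and accordingly 0 of the 10 members were called. At an unadjusted p under 0.05, 13.6% of all genes were higher and 8.54% were lower in sh-IGF2BP3, and among the members 1 was higher (AIFM2) and 1 was lower (ACSL5). The knockdown libraries lay wholly above the control libraries for 2 members (AIFM2 and DHODH) and wholly below for 0, against 13.2% and 11% of all genes. DESeq2 called 696 of the 13298 genes to which it gave an adjusted p (5.23%), and 0 members, of which AIFM2 alone had an unadjusted p under 0.05. The members divided evenly, with 5 positive and 5 negative log2 fold changes and a median of −0.0071, beside −0.014 over all genes tested. With 3 libraries against 3, the exact permutation tests of single genes and of proportions given in what follows could not go below p = 0.1.

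**Figure D1:**
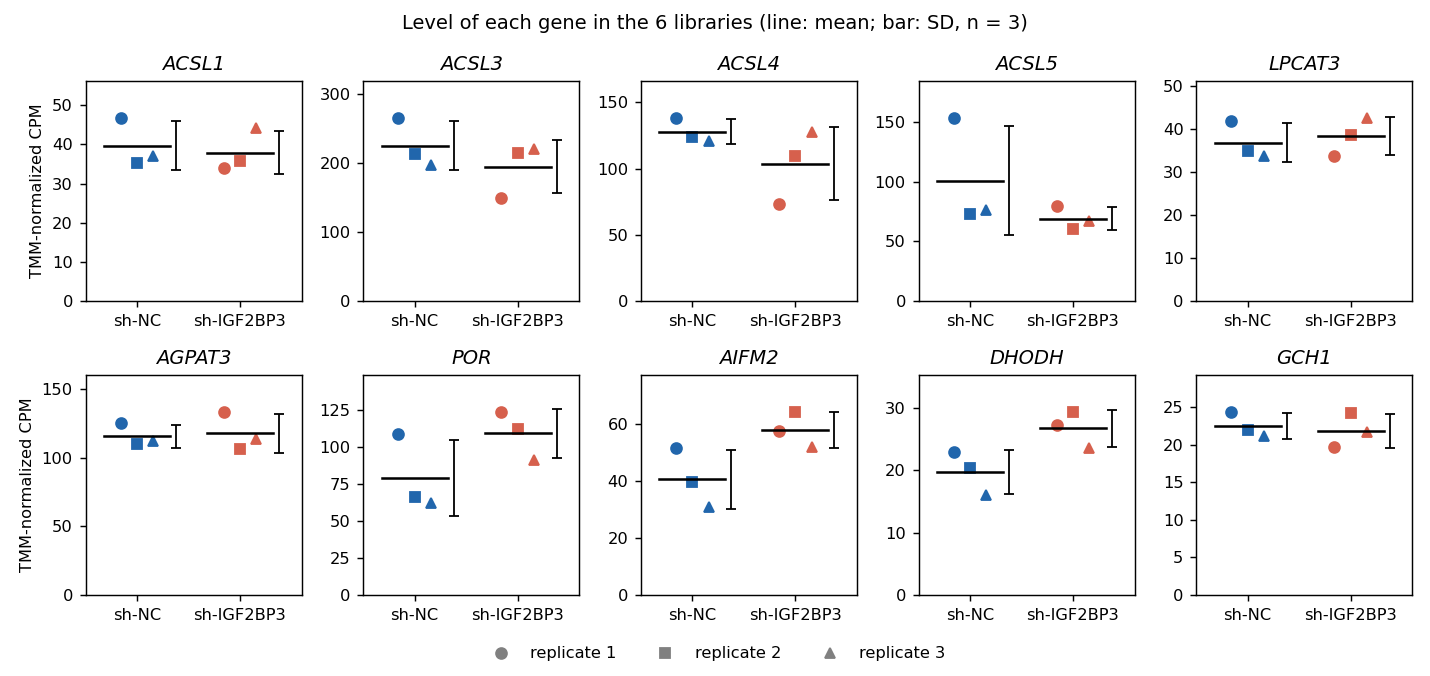
TMM-normalized CPM (vertical axis, from 0) of the 10 genes in the 3 sh-NC (blue) and 3 sh-IGF2BP3 (red) libraries, with replicate numbers as symbols, the mean as a line and the SD as a bar. The groups are separate for AIFM2 and DHODH, and the sh-NC 1 point is the highest control in all 10 panels.

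Among the synthetases, ACSL4 (chrX:109624244-109733403, minus strand) activates arachidonic and adrenic acid and thereby supplies the phospholipids that are oxidized in ferroptosis. It had 138, 124 and 121 CPM in the control libraries sh-NC 1, 2 and 3, against 73.6, 110 and 128 CPM in the knockdown libraries sh-IGF2BP3 1, 2 and 3. The controls were tightly grouped, sh-IGF2BP3 1 was far below them, and sh-IGF2BP3 3 lay within their range. Its log2 fold change came to −0.30 (SE 0.21, 95% interval −0.75 to 0.14, edgeR adjusted p = 0.398, exact permutation p = 0.3). It was −0.11 without sh-IGF2BP3 1 and −0.50 without sh-IGF2BP3 3.

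ACSL3 (chr2:222860942-222944639, plus strand) activates monounsaturated fatty acids such as oleic acid, whose incorporation displaces polyunsaturated chains. It had 266, 214 and 197 CPM in the control libraries and 150, 214 and 221 CPM in the knockdown libraries. Here too sh-IGF2BP3 1 was the lowest library, while sh-IGF2BP3 2 and 3 fell among the controls. This gave a log2 fold change of −0.21 (SE 0.20, 95% interval −0.64 to 0.22, edgeR adjusted p = 0.564), which was −0.051 without sh-IGF2BP3 1, −0.070 without sh-NC 1, −0.32 without sh-NC 3 and −0.33 without sh-IGF2BP3 3.

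ACSL5 (chr10:112374116-112428379, plus strand) showed the most negative log2 fold change of the 10 genes, −0.55 (SE 0.26, edgeR adjusted p = 0.223, exact permutation p = 0.3). Its levels were 153, 73.1 and 75.9 CPM in control and 79.4, 60.2 and 67.2 CPM in knockdown libraries. A single library, sh-NC 1, stood at about the summed level of the other controls, and sh-IGF2BP3 1 exceeded both of those controls. Without sh-NC 1 the log2 fold change was −0.11. Of its annotated exon bases, 8.64% are shared with genes on the opposite strand, ZDHHC6 and the antisense RNA AL157786.1, and whether counting used strand is not given in the sources used here. ZDHHC6 had 1258 to 2663 counts in a library and AL157786.1 20 to 65, beside 921 to 2719 for ACSL5.

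ACSL1 (chr4:184755595-184826818, minus strand), which activates a wide range of long-chain fatty acids, had 46.8, 35.2 and 36.9 CPM in the control and 34.0, 35.7 and 44.1 CPM in the knockdown libraries. The groups overlapped throughout, with a log2 fold change of −0.063 and a 95% interval of −0.48 to 0.36. In this fit the interval corresponds to a 0.72- to 1.28-fold level in the knockdown. With the library trends removed the log2 fold change was 0.11 (95% interval −0.29 to 0.51), and its sign turned under 4 of 15 alternatives.

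Because the 4 synthetases compete for fatty acids, their proportions within a library were also examined. These do not depend on library scaling, although the size of each share depends on the gene lengths. The library trends with GC content and length, described further on, were not removed from the shares or the sum. Between groups the trends amounted to −0.43 for ACSL3 and −0.40 for ACSL4, against −0.19 for ACSL1 and −0.13 for ACSL5, on the log2 scale. Over 6 measures of proportion and sum, 0 passed after adjustment. This outcome was fixed by the design, since the exact permutation test could not go below p = 0.1. ACSL4 made up 22.4% ± 3.72 (SD, n = 3) of the summed FPKM of the family in sh-NC and 22.2% ± 4.09 (n = 3) in sh-IGF2BP3 (exact permutation p = 0.8, adjusted p = 0.96). ACSL3 made up 27.0% ± 2.71 and 28.99% ± 3.92 (exact permutation p = 0.4, adjusted p = 0.75), and ACSL5 40.1% ± 7.25 and 36.3% ± 7.92 (exact permutation p = 0.5, adjusted p = 0.75). Per annotated exon base ACSL3 held the largest share, 38.7% ± 2.58 in sh-NC and 40.98% ± 3.85 in sh-IGF2BP3, and ACSL5 held 28.4% ± 6.21 and 25.4% ± 6.78. The adjusted p of the exact permutation test over the same 6 measures was then 0.3 or more, under the same limit.

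The share of ACSL1 was 9.39%, 10.7% and 11.4% in sh-NC and 12.4%, 11.96% and 13.3% in sh-IGF2BP3 libraries, and was higher in all knockdown libraries. The summed FPKM of the family was 73.4, 51.7 and 54.5 in sh-NC and 42.3, 43.5 and 49.4 in sh-IGF2BP3 libraries, and was lower in all of the latter. Both reached the smallest value the exact permutation test allows here, p = 0.1 (adjusted p = 0.3). The sum, unlike the shares, depends on library scaling. FPKM were scaled to library totals, without the TMM step behind the CPM values, and the sum was not computed with that step. In TMM-normalized CPM the groups overlapped for each synthetase. In the control with the highest sum, sh-NC 1, ACSL5 was high, and as a part of the sum it made up 48.4% of it there.

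**Figure D2:**
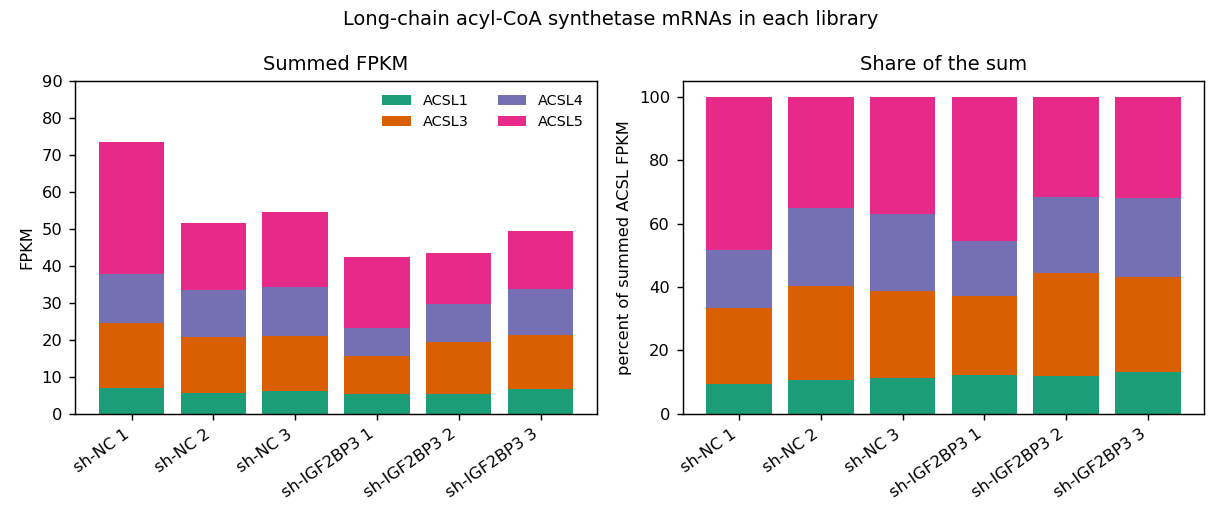
FPKM of ACSL1, ACSL3, ACSL4 and ACSL5 stacked for each of the 6 libraries (left) and each gene's percentage of that sum (right), with the deposited gene lengths. The FPKM are scaled to library totals and not TMM-normalized. The sums run from 51.7 to 73.4 FPKM in sh-NC and from 42.3 to 49.4 in sh-IGF2BP3, and ACSL5 takes 48.4% of sh-NC 1 and 45.5% of sh-IGF2BP3 1 but 31.7% to 36.8% of the others.

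Of the acyltransferases, LPCAT3 (chr12:6976185-7018477, minus strand) inserts the activated polyunsaturated chains into lysophospholipids. Its level was 41.9, 34.8 and 33.8 CPM in the control and 33.7, 38.7 and 42.6 CPM in the knockdown libraries. The groups covered the same range, with a log2 fold change of 0.057 (95% interval −0.35 to 0.46, edgeR adjusted p = 0.881) whose sign turned under 6 of 15 alternative analyses. EMG1, on the opposite strand, shares 65.6% of the annotated exon bases of LPCAT3. EMG1 had 140 to 215 counts in a library and LPCAT3 589 to 843, and without strand their reads cannot be told apart in the shared part.

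AGPAT3 (chr21:43865223-43987592, plus strand) acylates lysophosphatidic acid at the position that carries polyunsaturated chains. It had 125, 110 and 112 CPM in the control and 133, 106 and 114 CPM in the knockdown libraries. These ranges overlapped, and the log2 fold change was 0.029 (95% interval −0.35 to 0.41, or 0.78- to 1.33-fold), with a sign that turned under 7 of 15 alternatives. The ratio of AGPAT3 to LPCAT3 in FPKM was 1.199 ± 0.064 (SD, n = 3) in sh-NC and 1.19 ± 0.28 (n = 3) in sh-IGF2BP3 (exact permutation p = 1). It stood at 1.51 in sh-IGF2BP3 1.

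POR (chr7:75899200-75986855, plus strand), the flavoprotein that passes electrons from NADPH to cytochromes P450 and can drive phospholipid peroxidation, had 109, 66.0 and 62.2 CPM in the control libraries. In the knockdown libraries it had 124, 112 and 91.3 CPM. Both sh-NC 2 and 3 lay below every knockdown library, whereas sh-NC 1 lay among them. The log2 fold change was 0.47 (SE 0.22, 95% interval −0.0088 to 0.94, edgeR adjusted p = 0.234, exact permutation p = 0.2). Without sh-NC 1 it was 0.77 and passed the thresholds (edgeR adjusted p = 0.0157), in a comparison that called 1739 genes higher and 985 lower, whereas it was 0.34 without sh-NC 2 (adjusted p = 0.665) and 0.297 without sh-NC 3 (adjusted p = 0.612). Over all 15 alternatives the edgeR, DESeq2 or limma adjusted p ran from 0.0157 to 0.925. With the library trends removed it was 0.094.

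Of the 3 protective enzymes, AIFM2 and DHODH had groups that did not overlap, and GCH1 had groups that did. AIFM2 (chr10:70098223-70132934, minus strand), also called FSP1, regenerates the radical-trapping form of coenzyme Q at membranes independently of glutathione. It had 51.3, 39.5 and 30.7 CPM in the control and 57.6, 64.2 and 51.7 CPM in the knockdown libraries. The groups were separate, but the highest control and the lowest knockdown library nearly met. Its log2 fold change was 0.52 (SE 0.21, 95% interval 0.071 to 0.96, unadjusted edgeR p = 0.0258, adjusted p = 0.172, exact permutation p = 0.1). Without sh-NC 1 it was 0.72 and passed the thresholds (edgeR adjusted p = 0.0238, with 0.0238 to 0.797 over the 15 alternatives). That comparison called 1739 genes higher and 985 lower. Without sh-NC 3 the log2 fold change of AIFM2 was 0.33 (edgeR adjusted p = 0.563). With the library trends removed it was 0.30 and the groups overlapped.

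DHODH (chr16:72008588-72027664, plus strand) reduces coenzyme Q in the inner mitochondrial membrane while it oxidizes dihydroorotate in pyrimidine synthesis. Its level was 23.0, 20.4 and 16.04 CPM in control and 27.3, 29.4 and 23.6 CPM in knockdown libraries. As with AIFM2, all knockdown libraries were higher, and sh-NC 1 came closest to them. The log2 fold change was 0.43 (SE 0.21, 95% interval −0.022 to 0.89, edgeR adjusted p = 0.248, exact permutation p = 0.1), 0.28 without sh-NC 3 and 0.37 with the trends removed.

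GCH1 (chr14:54842008-54902826, minus strand) catalyses the first step of tetrahydrobiopterin synthesis. It had 24.4, 21.9 and 21.1 CPM in the control and 19.7, 24.1 and 21.6 CPM in the knockdown libraries. The groups overlapped fully, with a log2 fold change of −0.043 (95% interval −0.48 to 0.39, or 0.72- to 1.31-fold, edgeR adjusted p = 0.917).

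The libraries also differed in a trend with base composition. The deviation of log2 CPM from the mean of all libraries changed by −0.054, −0.23 and −0.21 per 10 percentage points of GC content in sh-NC 1, 2 and 3, and by 0.35, 0.15 and −0.0084 in sh-IGF2BP3 1, 2 and 3. Every knockdown library thus had a higher slope than every control. The trend and an effect of the knockdown therefore cannot be told apart in these libraries. Removing the trend may also remove part of such an effect, so values with the trends removed are an alternative and not a correction. Across 16236 tested genes with a known GC content, the log2 fold change rose with GC content (Spearman's rho 0.61, across genes, which are not independent replicates). Across the 10 members rho was 0.85 and Pearson's r 0.79, as a description over genes that share the same 6 libraries. The 3 members of highest log2 fold change (AIFM2, POR and DHODH) had a GC content of 56.1%, 61.3% and 53.1%, and the AT-rich ACSL3 and ACSL4 had negative values.

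**Figure D3:**
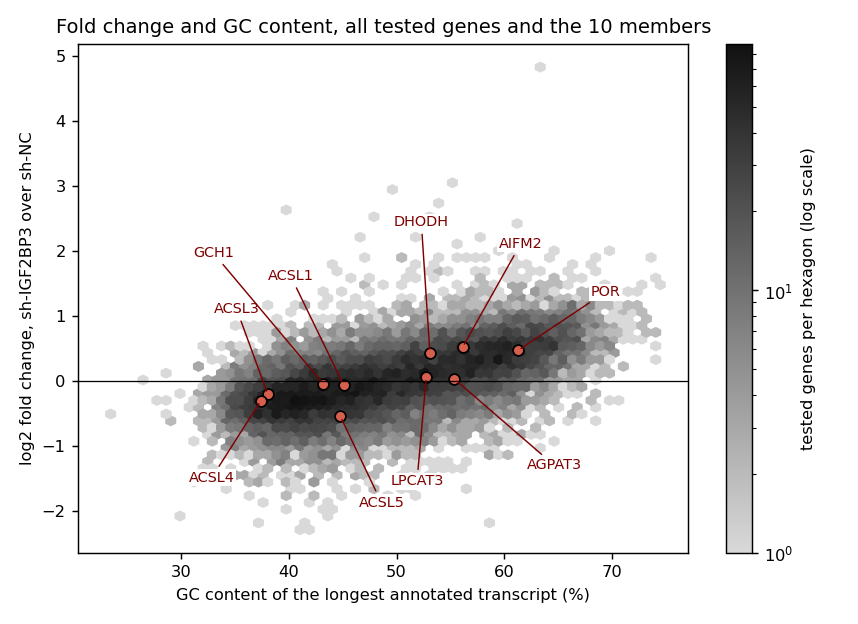
The log2 fold change of each tested gene (vertical axis) against the GC content of its longest annotated transcript in percent (horizontal axis), as grey hexagons shaded by the number of genes on a log scale, with the 10 members as red points. The members follow the slope of the grey cloud, from ACSL4 at 37.4% GC and −0.30 to POR at 61.3% GC and 0.47, with ACSL5 below it.

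When a smooth trend of each library with GC content and gene length was removed before the fit, the values of the members moved closer to 0 for those at the ends of the GC range. The trend between groups had amounted to −0.43 for ACSL3, −0.40 for ACSL4, 0.37 for POR and 0.21 for AIFM2 on the log2 scale, and to between −0.19 and 0.10 for the other members. ACSL4 then had a log2 fold change of 0.055 (95% interval −0.36 to 0.47) and ACSL3 one of 0.18 (−0.30 to 0.65), both positive in place of negative. DHODH was at 0.37 (−0.050 to 0.79), AIFM2 0.30 (−0.12 to 0.72) and ACSL5 −0.44 (−1.08 to 0.20). After this step 0 members and 10.5% of all genes had an unadjusted p under 0.05, the groups overlapped for all 10 members, and 7 of the 10 values were positive, with a median of 0.088 beside 0.010 over all genes. The lowest adjusted p among them was 0.519, for DHODH.

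**Figure D4:**
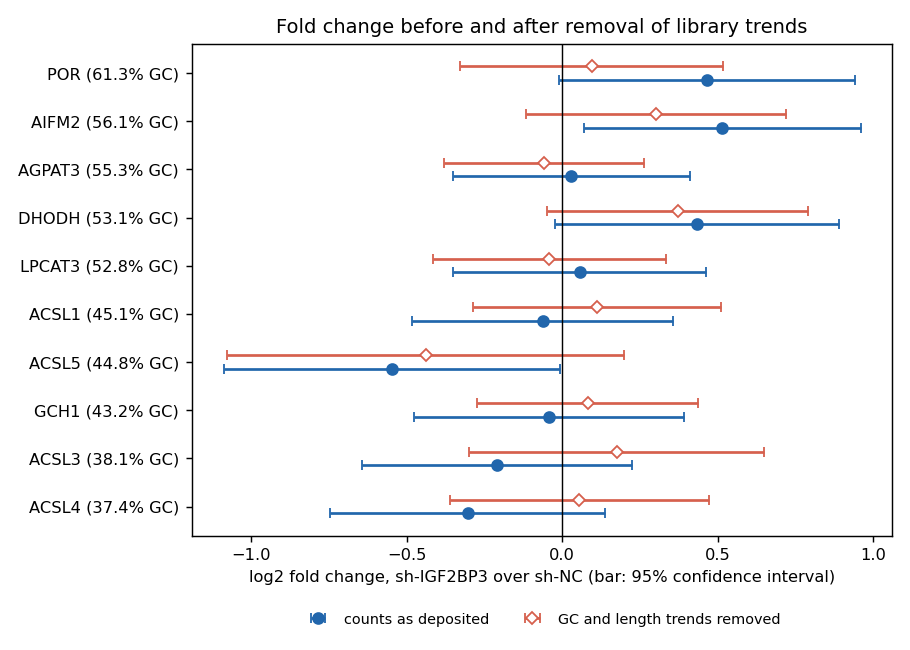
The log2 fold change of sh-IGF2BP3 over sh-NC with its 95% confidence interval (horizontal axis) for the 10 members, ordered by GC content, from the counts as deposited (blue circles) and with GC and length trends removed (open red diamonds). AIFM2 and ACSL5 have intervals that leave out 0 before the trends are removed, and every interval includes 0 afterwards.

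One control library stood out for these genes. sh-NC 1 had the highest CPM of the controls for 10 of 10 members, while it was the highest control for 40.2% of all tested genes and the lowest for 41.7%. With the trends removed it was again highest for 10 of 10 members, against 46.0% of all genes. The lowest control was sh-NC 3 for 7 members and sh-NC 2 for 3, against 36.3% and 22.0% of all genes. In the knockdown no library led in this way. There sh-IGF2BP3 1, 2 and 3 were the highest for 3, 3 and 4 members, against 38.9%, 28.1% and 33.0% of all genes. They were the lowest for 5, 2 and 3 members, against 37.8%, 24.7% and 37.4%. With the trends removed they were the lowest for 6, 2 and 2 members, against 41.3%, 27.7% and 31.0%. What set sh-NC 1 apart was not tested.

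The surrounding pathway was described with 82 further genes in 7 lists, of which 78 were tested and 0 were called by edgeR. At an unadjusted p under 0.05, 11 of the 78 were higher (14.1%) and 4 were lower (5.13%), close to the 13.6% and 8.54% of all genes. The knockdown libraries were wholly above the controls for 17 genes (21.8%) and wholly below for 5 (6.41%), against 13.2% and 11% of all genes. DESeq2 called 3 of them, AGPAT2, ELOVL7 and FASN (3.85%), against 5.23% of all genes it gave an adjusted p. With the trends removed 4 had an unadjusted p under 0.05 (5.13%), against 10.5% of all genes.

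In the acyl-CoA and phospholipid list (19 genes, median log2 fold change −0.044), AGPAT2, a sister enzyme of AGPAT3, had 31.8, 27.2 and 22.9 CPM in control and 67.4, 51.9 and 37.0 CPM in knockdown libraries. Its log2 fold change was 0.93 (edgeR adjusted p = 0.103, DESeq2 adjusted p = 0.019), and 0.25 with the trends removed, at a GC content of 65.9%. The acyltransferases AGPAT1 (0.53) and MBOAT7 (0.42), the latter incorporating arachidonic acid into phosphatidylinositol, and the acyl-CoA synthetase SLC27A5 (0.73) had positive log2 fold changes with an unadjusted p under 0.05, and LPCAT2 a negative one (−0.52). With the trends removed AGPAT1 was at 0.31, MBOAT7 at 0.13, SLC27A5 at 0.67 and LPCAT2 at −0.14.

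The list of fatty acid supply held the most extreme values. FASN, the fatty acid synthase, had 2724, 1213 and 978 CPM in control and 3049, 3510 and 3164 CPM in knockdown libraries. The knockdown libraries were close together, while sh-NC 1 stood far above the other controls. Its log2 fold change was 0.98 (edgeR adjusted p = 0.117, DESeq2 adjusted p = 0.0398), and 0.57 with the trends removed. The elongase ELOVL7 had 25.4, 36.8 and 37.7 CPM in control and 17.2, 16.8 and 20.4 CPM in knockdown libraries. Its groups were separate, with a log2 fold change of −0.87 (edgeR adjusted p = 0.103, DESeq2 adjusted p = 0.018) and −0.56 with the trends removed. ELOVL2, an elongase of polyunsaturated chains, was at 0.33 to 1.58 CPM (−1.12), and the median of the 15 tested genes of this list was 0.045.

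Ether lipid synthesis, which provides another class of polyunsaturated phospholipid, had a median of −0.21 over 10 genes and 0.079 with the trends removed. Its peroxisomal import factor PEX10 had 0.61 and its phosphotransferase CEPT1 −0.48, which became 0.23 and −0.070. Of 9 tested lipid oxidation genes, the lipoxygenases ALOX12 (0.80) and ALOXE3 (0.78) and the reductase CYB5R3 (0.60) had an unadjusted p under 0.05. With the trends removed these were at 0.46, 0.42 and 0.31, and 0 of the 9 genes had such a p. ALOX12 and ALOXE3 were at 2.66 to 7.66 CPM in all libraries.

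The lists nearest to the protective enzymes leaned to positive values without individual calls. They were chosen with earlier results of these data known, and their genes share the same 6 libraries, so the lean is a description only. All 13 coenzyme Q genes had a positive log2 fold change, with a median of 0.16 and of 0.23 with the trends removed, where 49.0% of all tested genes were positive. Of these, COQ8B alone, a kinase-like protein of coenzyme Q synthesis, had an unadjusted edgeR p under 0.05 (7.69% of the list, against 13.6% of all genes). With the trends removed 0 of the 13 had such a p. COQ8B was at 23.1, 23.4 and 20.3 CPM in control and 36.2, 35.6 and 28.3 CPM in knockdown libraries. Its log2 fold change was 0.58 (edgeR adjusted p = 0.13), and 0.24 with the trends removed. The tetrahydrobiopterin list had a median of 0.16 over 5 tested genes, with or without the trends, led by sepiapterin reductase, SPR (0.67, and 0.25 with the trends removed). The pyrimidine list around DHODH had a median of 0.24 over 7 genes and of 0.097 with the trends removed, and 0 of them had an unadjusted p under 0.05.

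**Figure D5:**
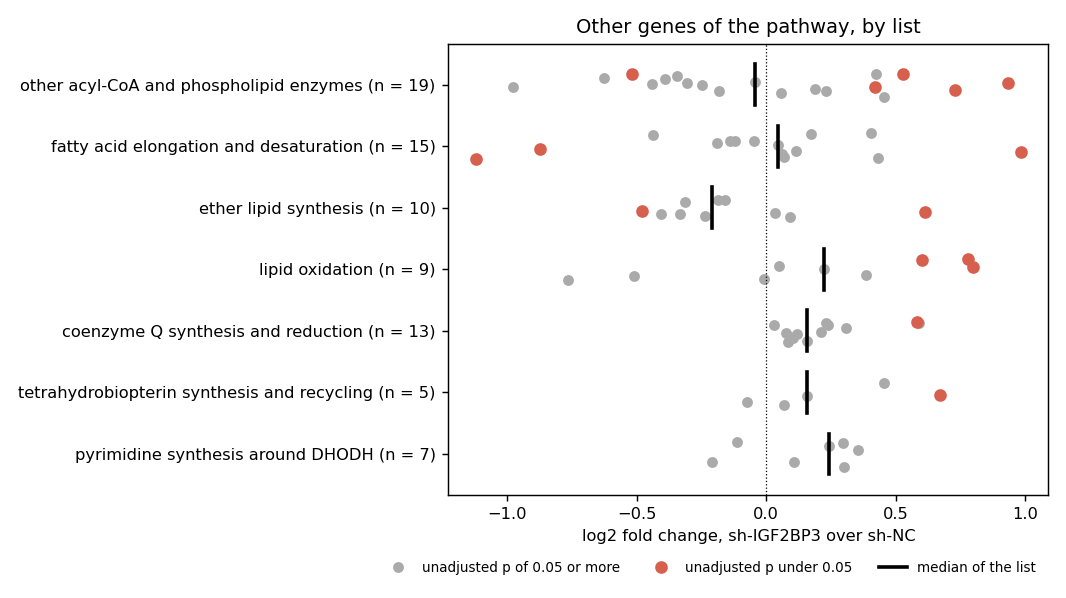
The log2 fold change of sh-IGF2BP3 over sh-NC (horizontal axis) of the 78 tested genes in the 7 lists, 1 point per gene, red at an unadjusted edgeR p under 0.05, with the median of each list as a black line. All 13 coenzyme Q genes lie right of 0, and FASN and ELOVL2 mark the ends of the fatty acid list at 0.98 and −1.12.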

How the data were processed

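RNA-seq was performed on total RNA of HCT116 cells with a TruSeq RNA kit. The authors deposited raw read counts per gene, without normalization, and FPKM values, which equal each count divided by the library total and by 1 gene length common to all 6 libraries. The submitters' processing notes name CASAVA and the GRCh38 build, while the aligner, the counting tool and the use of strand are not given in the sources used here. The study describes 3 pairs of control and knockdown cells, and repeated experiments in general, but not what a pair shared or whether these libraries came from separate cultures, so p-values measure the spread between these libraries, which may be technical.

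The counts were fitted with edgeR 4.0.16 under R 4.3.3 (filterByExpr, TMM, glmQLFit and glmQLFTest, BH adjustment over 16753 genes). CPM values are TMM-normalized, and standard errors are the log2 fold change divided by the root of F. The thresholds follow the study's methods. Alternatives used DESeq2 1.42.0 and limma 3.58.1. Single values were compared by two-sided exact permutation tests over libraries. The trend of every library with GC content and length was modelled as a spline (5 degrees of freedom) and subtracted, with GC content from the longest GENCODE 29 transcript (known for 96.9% of tested genes). The procedures were tested on simulated data, where trend removal was tried on a GC trend with no gene changed. The genes and lists were chosen with earlier results of these data known. Named genes were the 10 members, IGF2BP3 and list genes with an unadjusted p under 0.05, while ZDHHC6, AL157786.1, EMG1 and KCNE5 were named for their overlap. Of the listed genes, ELOVL4, ALOX12B, ALOX15B and GCHFR were not tested for low counts. Coding sequences came from GENCODE 29.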

Additional observations from a re-analysis of the deposited data

How the results depend on the processing

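With 3 libraries a group and standard errors of 0.18 to 0.26 on the log2 scale, small changes of the members could not be resolved. Of 165 log2 fold changes recomputed (11 genes, 15 alternatives), 138 kept their direction and side of the threshold. DESeq2 called 560 genes higher and 136 lower, the edgeR fit with no filter on low counts 687 and 150, RLE normalization 1 higher, at least 10 counts in every library 1 higher, and limma on log2(FPKM + 1) 1 lower, with 0 members called in each. Leaving out 1 library at a time gave 0 to 1739 genes higher and 0 to 985 lower, and 0 to 2 members higher. The most, 1739 and 985, came without sh-NC 1. Without sh-IGF2BP3 3 there were 214 and 14, without sh-NC 3 there were 5 and 0, and leaving out sh-NC 2 gave 1 and 1. The cause was not tested.

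Leaving out 1 library moved ACSL3 between −0.33 and −0.051, ACSL4 between −0.50 and −0.11, ACSL5 between −0.75 and −0.11, POR between 0.30 and 0.77, AIFM2 between 0.33 and 0.72, DHODH between 0.28 and 0.56, ACSL1 between −0.20 and 0.078, AGPAT3 between −0.067 and 0.10, GCH1 between −0.12 and 0.029 and LPCAT3 between −0.043 and 0.16. With the GC and length trends removed, the sign turned for ACSL1 (0.11), ACSL3 (0.18), ACSL4 (0.055), GCH1 (0.082), LPCAT3 (−0.041) and AGPAT3 (−0.057). limma gave −0.018 and −0.046 for LPCAT3 and AGPAT3 on log2(FPKM + 1), and −0.020 and −0.052 on log2(FPKM + 0.1). Alternatives for the proportions were added after the data were seen. The ACSL4 share differed by −0.25 percentage points between the groups, by −0.66 per annotated exon base and by −2.40 to 2.08 with 1 library left out (positive without sh-NC 2, sh-NC 3 or sh-IGF2BP3 1, and furthest below 0 without sh-NC 1), and the ACSL3 share by 2.02, 2.25 and 0.33 to 4.17.

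Same-numbered libraries did not deviate together (Pearson's r −0.28, −0.19 and −0.043 over genes), so the numbers were not taken to pair the samples, although the study speaks of 3 pairs. With the replicate number as a block, 0 genes and 0 members were called and AIFM2 was at 0.54. The trends removed together with the replicate block gave ACSL1 0.13, ACSL3 0.21, ACSL4 0.061, GCH1 0.087, LPCAT3 −0.047 and AGPAT3 −0.052.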
